A study of Mus musculus with 8 samples.

Results

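This account describes 10 genes of sphingosine 1-phosphate (S1P) and ceramide metabolism among the 54146 genes measured in cultured mouse astrocytes with and without knockdown of GSTM1. The 10 genes were matched by symbol, and all of them had reads in all 8 libraries: the lyase Sgpl1, the sphingosine kinases Sphk1 and Sphk2, the S1P phosphatase Sgpp1, the receptors S1pr1 and S1pr2, the ceramide synthase Cers2, the acid ceramidase Asah1, the acid sphingomyelinase Smpd1 and the sphingomyelin synthase Sgms1. Sgpl1 was taken up because it was lower in the GSTM1 KD libraries. Its difference between GSTM1 KD and control KD is therefore given as a description, with no test, and the other 9 genes were tested. All 10 genes were chosen with earlier results of these data known.

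GSTM1 is a cytosolic enzyme that joins glutathione to reactive compounds, and the study asked how its loss alters gene expression in resting and in inflamed astrocytes. Glial cells from the cortex of C57BL/6 pups at postnatal day 2 to 5 were infected with lentivirus that carried a hairpin RNA, either one that silences Gstm1 or one with no target, and the CD11b-negative fraction after magnetic sorting was used as astrocytes. Control KD and GSTM1 KD astrocytes were each sequenced untreated and 6 h after the addition of TNF-α at 50 ng/ml, which gave 4 groups of 2 libraries, described by the study as biological replicates. All 4 groups shared the wild-type strain, viral infection and drug selection of infected cells, and TNF-α, a cytokine of acute inflammation, was the added agent.

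Sphingolipids are built on ceramide, which is made in the endoplasmic reticulum by ceramide synthases or released from sphingomyelin by sphingomyelinases. Ceramidases free sphingosine from ceramide, sphingosine kinases turn it into S1P, and S1P is either returned to sphingosine by phosphatases or cleaved for good by S1P lyase. Outside the cell S1P is a ligand of a family of G protein-coupled receptors, and astrocytes are a cell type of the brain known to carry them.

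The libraries held 17349682 to 34434615 expected counts each, with 19371 to 21557 genes at a count above 0. Gstm1 itself stood at 373 and 619 TPM (transcripts scaled for length to a fixed sum per library) in control KD at the basal level against 49.7 and 53.8 TPM in GSTM1 KD, and at 338 and 627 TPM against 40.4 and 39.4 TPM after TNF-α. Microglial markers summed to 0.86 to 2.38 TPM and endothelial markers to 1.72 to 3.21 TPM over the 8 libraries, and the endothelial marker Cldn5 was at 0 in every group. Astrocyte markers were all detected and summed, before stimulation, to 1470 to 3610 TPM in control KD and 3540 to 5610 TPM in GSTM1 KD, while of the 8 markers only S100b passed the test between the knockdowns, being lower in both states. Markers of the oligodendrocyte lineage, most of which came from Olig1 and Olig2, summed at the basal level to 533 to 596 TPM in control KD and 423 to 441 TPM in GSTM1 KD, and after TNF-α to 448 to 479 TPM and 340 to 352 TPM.

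The 10 genes lie on 8 chromosomes of mouse build GRCm38 and all are annotated as protein-coding in GENCODE M21. Sgpl1 is at chr10:61098642-61147703 on the minus strand, Sphk2 at chr7:45709467-45718002 on the minus strand and Cers2 at chr3:95314791-95323599 on the plus strand. S1pr2 is at chr9:20962361-20976781 and Sgpp1 at chr12:75714249-75735729, both on the minus strand, and Smpd1 is at chr7:105554360-105558389 on the plus strand. Sphk1 is at chr11:116530925-116536674 on the plus strand, and S1pr1 at chr3:115710433-115715072, Asah1 at chr8:41340197-41374773 and Sgms1 at chr19:32122727-32389714 are on the minus strand. Exons of Sphk2 share 539 bases with Dbp and 373 bases with Rpl18 on the opposite strand, which is 13% and 8.97% of its exon sequence. The libraries kept strand, but whether the counting used it is not given in the sources used here, so reads of Sphk2 and these neighbours may not have been told apart.

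RefSeq promoter windows, from 250 bases before to 50 bases after a transcription start on GRCm38.p6, were at hand for 8 of the 10 genes. S1pr1 and Asah1 had no entry. Windows are shown for Sgpl1 and for the 5 genes that passed the test between the knockdowns in both states, first those that were lower in GSTM1 KD and then those that were higher, so that the sequences at the starts of genes that moved together can be read side by side. For genes with several starts the most upstream window was taken. The windows lie at chr10:61147635-61147934 for Sgpl1, chr7:45717953-45718252 for Sphk2, chr9:20976744-20977043 for S1pr2, chr3:95314940-95315239 for Cers2, chr12:75735680-75735979 for Sgpp1 and chr7:105554110-105554409 for Smpd1, each written 5′ to 3′ on the strand of its gene, with capitals for a cAMP response element (TGACGTCA) or an E-box (CACGTG).
Sgpl1: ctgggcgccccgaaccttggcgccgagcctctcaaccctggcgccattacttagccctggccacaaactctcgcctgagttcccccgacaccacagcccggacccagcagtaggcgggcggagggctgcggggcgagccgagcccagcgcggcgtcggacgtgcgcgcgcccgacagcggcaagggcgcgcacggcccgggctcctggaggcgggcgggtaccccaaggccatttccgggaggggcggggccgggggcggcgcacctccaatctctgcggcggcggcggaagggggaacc
Sphk2: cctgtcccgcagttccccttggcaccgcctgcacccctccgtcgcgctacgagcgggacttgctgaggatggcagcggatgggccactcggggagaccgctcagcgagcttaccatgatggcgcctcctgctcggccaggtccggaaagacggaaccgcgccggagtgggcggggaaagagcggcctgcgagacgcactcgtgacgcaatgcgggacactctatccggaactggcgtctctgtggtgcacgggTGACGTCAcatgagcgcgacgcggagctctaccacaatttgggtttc
S1pr2: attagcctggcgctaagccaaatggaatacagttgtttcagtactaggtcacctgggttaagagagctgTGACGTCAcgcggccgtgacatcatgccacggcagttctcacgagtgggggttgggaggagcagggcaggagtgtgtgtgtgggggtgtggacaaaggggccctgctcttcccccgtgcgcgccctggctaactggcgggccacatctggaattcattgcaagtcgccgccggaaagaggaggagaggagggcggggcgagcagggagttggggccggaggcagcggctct
Cers2: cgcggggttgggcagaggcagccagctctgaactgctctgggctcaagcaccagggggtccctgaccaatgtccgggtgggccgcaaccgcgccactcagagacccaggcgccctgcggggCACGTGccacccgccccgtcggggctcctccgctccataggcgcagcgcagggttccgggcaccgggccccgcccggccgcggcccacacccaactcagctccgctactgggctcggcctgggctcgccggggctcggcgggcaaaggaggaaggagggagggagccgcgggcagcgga
Sgpp1: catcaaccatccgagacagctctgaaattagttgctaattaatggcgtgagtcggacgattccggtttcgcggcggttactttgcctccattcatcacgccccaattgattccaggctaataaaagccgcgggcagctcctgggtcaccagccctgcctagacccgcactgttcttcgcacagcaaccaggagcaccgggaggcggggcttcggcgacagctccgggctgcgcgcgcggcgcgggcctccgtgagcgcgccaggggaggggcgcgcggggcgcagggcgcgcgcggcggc
Smpd1: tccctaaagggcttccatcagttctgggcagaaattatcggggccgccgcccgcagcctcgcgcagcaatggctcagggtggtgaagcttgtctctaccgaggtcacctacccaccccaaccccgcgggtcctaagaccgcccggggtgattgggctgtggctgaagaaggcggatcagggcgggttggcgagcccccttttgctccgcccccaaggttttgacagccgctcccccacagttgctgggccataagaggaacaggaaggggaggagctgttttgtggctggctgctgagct

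The 6 windows were rich in G and C, with 75.3% in Sgpl1, 75% in Cers2 and 62% to 66% in the other 4, against a median of 52.7% over 32841 windows of the same length. The windows taken for Sgms1 and Sphk1, which are not printed, held 69.3% and 56%. The cAMP response element was found in Sphk2, 3 bases after the start, and in S1pr2, with its first base at position -181, while 1.79% of all windows held it. The E-box was found in Cers2 at position -129 and in 7.15% of all windows. The κB consensus, read on both strands as were all motifs, matched none of the windows taken for the 8 genes and 5.81% of all windows. The letters GGGCGG were found 4 times each in Sgpl1 and Smpd1, 2 times in Cers2 and 1 time each in Sphk2 and S1pr2, so Sgpp1 alone of the printed windows lacked them, and 35.7% of all windows held them. Of the windows not printed, that of Sgms1 held GGGCGG 1 time and that of Sphk1 lacked it. CCAAT was found in Sgpl1, Cers2, Sgpp1 and Smpd1, and in 37.4% of all windows. None of the matches in capitals overlapped another. The motifs were chosen after the sequences were seen, and a match describes letters in a window, not a bound site.

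At the basal level in control KD astrocytes, measured per transcript length as mean TPM of 2 libraries, Cers2 was the most abundant of the 10 at 205 TPM and S1pr2 the least at 8.89 TPM. Between them came Sgpl1 at 171 TPM, Asah1 at 112 TPM, Smpd1 at 91.0 TPM, S1pr1 at 46.0 TPM, Sphk2 at 28.3 TPM, Sgpp1 at 23.6 TPM, Sphk1 at 17.4 TPM and Sgms1 at 17.3 TPM. Of these neighbours only Sphk1 and Sgms1 had libraries that overlapped. In GSTM1 KD the order of mean TPM was led by Smpd1 at 163 TPM and Asah1 at 144 TPM, the lysosomal enzymes, followed by Cers2 at 115 TPM and Sgpl1 at 56.1 TPM. Sphk2 at 12.4 TPM and Sphk1 at 11.2 TPM overlapped each other there, and S1pr2 was again the least abundant at 4.24 TPM. After TNF-α the first places were held by Cers2 at 200 TPM and Sgpl1 at 192 TPM in control KD, which overlapped, and by Asah1 at 143 TPM and Smpd1 at 142 TPM in GSTM1 KD, which overlapped as well.

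**Figure D1:**
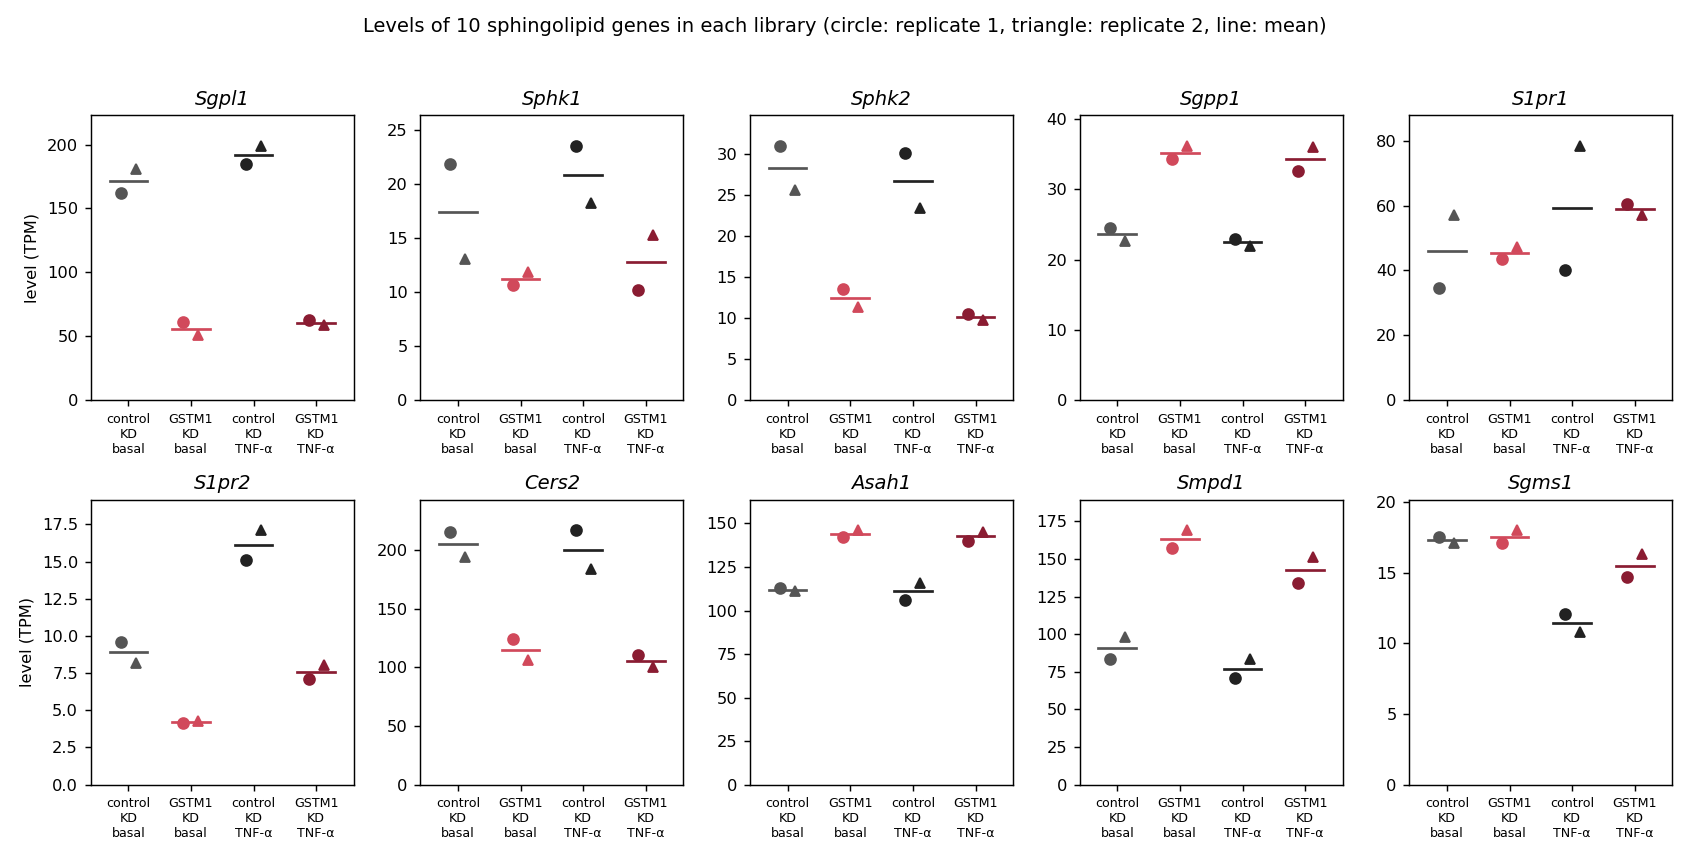
Level in TPM (vertical axes, from 0, a scale for each gene) of the 10 genes in the 8 libraries, with circles for replicate 1, triangles for replicate 2 and a line at the mean of each group. Sgpl1 sits between 51.1 and 62.8 TPM in the 4 GSTM1 KD libraries and between 162 and 199 TPM in the 4 control KD libraries, while Smpd1 and Asah1 sit higher in GSTM1 KD.

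The comparison of GSTM1 KD with control KD asks which steps of the pathway had other transcript levels when Gstm1 was silenced. Before stimulation Sphk2, S1pr2 and Cers2 were 2.3-fold, 1.99-fold and 2.02-fold lower in GSTM1 KD, and Sgpp1 and Smpd1 rose by 1.43-fold and 1.72-fold. After TNF-α the same 5 genes passed the test in the same directions, with Sphk2 lower by 2.72-fold, S1pr2 by 1.88-fold and Cers2 by 2.06-fold and Sgpp1 and Smpd1 higher by 1.45-fold and 1.76-fold. In each state this was 5 of the 9 genes tested, 2 higher and 3 lower, beside 10.2% of the 14899 genes tested at the basal level (4.6% higher and 5.62% lower) and 16.2% of the 14593 genes tested after TNF-α (7.26% higher and 8.92% lower). A gene passed when the adjusted p of edgeR's quasi-likelihood test, corrected over all genes tested, was under 0.05. The 9 genes were chosen with earlier results of these data known, so their share is a description and no test of the set. How many of all genes passed in both states in the same direction was not counted. The median log2 fold change of the 9 genes was -0.08 in each state, against -0.00203 and -0.0106 over all genes. Libraries of GSTM1 KD and control KD did not overlap, in CPM (counts scaled to a fixed library size), for 7 of the 9 genes at the basal level and for 8 after TNF-α, which 63.5% and 66.6% of all genes tested also showed. The control and GSTM1 KD groups also differed in the summed oligodendrocyte-lineage markers given above, of which Olig2 fell in both states (log2 fold change -0.85 and -1.14, edgeR adjusted p = 0.0251 and 0.0101) and Olig1 after TNF-α (-0.44, edgeR adjusted p = 0.0497). Of the 5 fibroblast and mural markers Col1a2 fell with the knockdown before and after stimulation (log2 fold change -1.13 and -0.99, edgeR adjusted p = 0.0352 and 0.025), and Pdgfrb was higher after TNF-α (0.81, edgeR adjusted p = 0.0337). Of the 4 ependymal and choroid plexus markers Folr1 was higher in both (2.67 and 2.78, edgeR adjusted p = 0.0476 and 0.033), from a mean of 0.99 to 6.24 TPM at the basal level and of 1.27 against 5.48 TPM after TNF-α. The fibroblast and mural markers summed to 95.5 to 145 TPM in control KD against 74.8 to 107 TPM in GSTM1 KD before stimulation, and to 83.5 to 121 TPM against 59.8 to 93.6 TPM after TNF-α. The ependymal and choroid plexus markers summed to 76.1 to 117 TPM and 99.6 to 113 TPM, and to 65.1 to 76.2 TPM against 91.2 to 100 TPM after TNF-α. The part of these markers in the results was not tested. In RNA from a whole culture fewer cells of a type and less RNA per cell cannot be told apart.

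Sgpl1, which encodes the lyase that ends S1P signalling by cleaving it, was measured at 162 and 181 TPM in control KD and at 61.0 and 51.1 TPM in GSTM1 KD at the basal level. After TNF-α its level was 185 and 199 TPM in control KD and 62.8 and 58.4 TPM in GSTM1 KD. All 4 control KD libraries lay far above all 4 GSTM1 KD libraries. The log2 fold change in GSTM1 KD was -1.71 with a standard error (SE) of 0.132 at the basal level, a 3.27-fold lower count, and -1.77 (SE 0.122) after TNF-α, a 3.41-fold lower count. It rested on 2010 to 12415 counts per library and stayed between -1.86 and -1.61 over all alternatives in both states. These values chose the gene and are no test of it.

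The sphingosine kinases make S1P. Sphk2, the kinase found in the nucleus and on internal membranes, was at 31.0 and 25.6 TPM in control KD and at 13.6 and 11.3 TPM in GSTM1 KD at the basal level. After TNF-α it was at 30.1 and 23.4 TPM in control KD and at 10.5 and 9.78 TPM in GSTM1 KD, so the groups did not overlap in either state. Sphk2 fell by 1.20 on the log2 scale at the basal level (SE 0.16, edgeR adjusted p = 0.0203) and fell by 1.44 after TNF-α (SE 0.154, edgeR adjusted p = 0.0112). Sphk1, the mainly cytosolic kinase, was at 21.8 and 13 TPM in control KD and 10.6 and 11.8 TPM in GSTM1 KD at the basal level. After TNF-α it was at 23.5 and 18.2 TPM against 10.2 and 15.3 TPM, and in both states the lowest control library lay above the highest GSTM1 KD library. The log2 fold change of Sphk1 was -0.72 (SE 0.246, edgeR adjusted p = 0.116) at the basal level and -0.67 (SE 0.199, edgeR adjusted p = 0.0743) after TNF-α, neither past the threshold. Sphk1 passed in both states with the replicate block (edgeR adjusted p = 0.0225 and 0.0371) and with no filter on low counts (edgeR adjusted p = 0.00659 and 0.00679). With a library left out, its log2 fold change ran from -0.989 to -0.393 at the basal level and from -0.888 to -0.454 after TNF-α. The smallest basal change came without control KD replicate 1 and the largest without control KD replicate 2. The unadjusted 95% intervals of Sphk1, -1.33 to -0.108 and -1.16 to -0.172, left room for differences from slight to over 2-fold. The kinases together summed to 52.8, 38.6, 53.6 and 41.6 TPM in the 4 control KD libraries and to 24.1, 23.1, 20.7 and 25.1 TPM in the 4 GSTM1 KD libraries. Sgpl1 per summed kinase came to 3.08, 4.68, 3.46 and 4.78 in the control KD libraries and 2.53, 2.22, 3.04 and 2.33 in GSTM1 KD, a narrower gap than that of Sgpl1 alone, as the kinases were also lower.

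Sgpp1 encodes the phosphatase of the endoplasmic reticulum that returns S1P to sphingosine, and it moved the opposite way. Its level was 24.5 and 22.7 TPM in control KD and 34.3 and 36.2 TPM in GSTM1 KD before stimulation, and 23.0 and 21.9 TPM against 32.6 and 36.0 TPM after TNF-α. The 4 GSTM1 KD libraries were all above the 4 control KD libraries. Sgpp1 rose by 0.52 on the log2 scale at the basal level (SE 0.108, edgeR adjusted p = 0.0421) and by 0.53 after TNF-α (SE 0.1, edgeR adjusted p = 0.0276).

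Of the receptors, S1pr2 fell and S1pr1 gave no call. S1pr2, a receptor known for restraining cell migration, was at 9.58 and 8.20 TPM in control KD and 4.18 and 4.31 TPM in GSTM1 KD at the basal level. After TNF-α it was at 15.1 and 17.1 TPM in control KD and 7.08 and 8.08 TPM in GSTM1 KD, and no control KD library overlapped a GSTM1 KD library of the same state. In TPM each stimulated GSTM1 KD library lay below both unstimulated control KD libraries, but in CPM, which uses no length, they overlapped at 25.4 and 28.2 against 26.8 and 27.1, and the effective length given for S1pr2 ranged from 4772 to 6167 bases over the 8 libraries. S1pr2 fell by 1.00 on the log2 scale at the basal level (SE 0.143, edgeR adjusted p = 0.0228) and fell by 0.91 after TNF-α (SE 0.148, edgeR adjusted p = 0.0205). S1pr1, the receptor that the drug fingolimod acts on, was at 34.6 and 57.2 TPM in control KD and 43.4 and 47.1 TPM in GSTM1 KD before stimulation, and at 40.0 and 78.4 TPM against 60.6 and 57.2 TPM after TNF-α. The control KD replicates spread widely in both states and enclosed both GSTM1 KD libraries. The log2 fold change of S1pr1 was -0.08 in each state (SE 0.233 and 0.306, edgeR adjusted p = 0.839 and 0.876), with 95% intervals of -0.658 to 0.495 and -0.839 to 0.682. Its sign rested on a single control library: it became -0.40 (edgeR adjusted p = 0.0453) without control KD replicate 1 and 0.31 (edgeR adjusted p = 0.06) without replicate 2 at the basal level, and -0.49 (edgeR adjusted p = 0.0217) and 0.50 (edgeR adjusted p = 0.012) after TNF-α, so after TNF-α S1pr1 passed in opposite directions with one or the other control library left out.

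Among the ceramide genes, Cers2, which encodes the synthase of very long chain ceramides, fell in GSTM1 KD. It was at 216 and 194 TPM in control KD and 124 and 106 TPM in GSTM1 KD before stimulation, and at 217 and 184 TPM against 111 and 100 TPM after TNF-α. No library of one knockdown reached the range of the other. Cers2 fell by 1.02 on the log2 scale at the basal level (SE 0.133, edgeR adjusted p = 0.0195) and fell by 1.05 after TNF-α (SE 0.124, edgeR adjusted p = 0.0125). Its exons share 144 bases with the antisense gene 6330562C20Rik and 75 bases with Setdb1, 3.92% and 2.04% of its exon sequence.

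Smpd1 and Asah1 encode the lysosomal enzymes that release ceramide from sphingomyelin and sphingosine from ceramide. Smpd1 was at 83.7 and 98.3 TPM in control KD and 157 and 169 TPM in GSTM1 KD before stimulation, and at 70.9 and 83.4 TPM against 134 and 151 TPM after TNF-α. Smpd1 rose by 0.78 on the log2 scale at the basal level (SE 0.124, edgeR adjusted p = 0.0262) and by 0.81 after TNF-α (SE 0.126, edgeR adjusted p = 0.019). The 4 GSTM1 KD libraries all lay above the 4 control KD libraries. Asah1 was at 113 and 111 TPM in control KD and 142 and 146 TPM in GSTM1 KD before stimulation, and at 106 and 116 TPM against 140 and 145 TPM after TNF-α. Its libraries did not overlap either, yet the log2 fold changes of 0.34 (SE 0.108, edgeR adjusted p = 0.0997) and 0.30 (SE 0.108, edgeR adjusted p = 0.113) were not past the threshold. At the basal level Asah1 passed with the replicate block (0.34, edgeR adjusted p = 0.025), and in both states without control KD replicate 2 (0.39 and 0.40, edgeR adjusted p = 0.0256 and 0.0232). The unadjusted 95% intervals for Asah1 were 0.0707 to 0.607 and 0.0281 to 0.566. Summed, the lysosomal pair stood at 197, 209, 177 and 199 TPM in control KD and at 300, 316, 274 and 296 TPM in GSTM1 KD.

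Sgms1, which encodes the Golgi enzyme that makes sphingomyelin from ceramide, was at 17.5 and 17.1 TPM in control KD and 17.1 and 18.0 TPM in GSTM1 KD at the basal level. The groups overlapped, with a log2 fold change of 0.03 (SE 0.132, edgeR adjusted p = 0.909) and a 95% interval of -0.3 to 0.354, whose sign turned under 4 alternatives. After TNF-α Sgms1 was at 12.1 and 10.8 TPM in control KD and 14.7 and 16.3 TPM in GSTM1 KD. The stimulated groups did not overlap, and the log2 fold change of 0.44 (SE 0.133, edgeR adjusted p = 0.0785) was not past the threshold in the fit of these 4 libraries without a replicate block. It passed with all 8 libraries in the fit (0.46, edgeR adjusted p = 0.0385), with the block (0.44, edgeR adjusted p = 0.0455) and without control KD replicate 2 (0.53, edgeR adjusted p = 0.0313).

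**Figure D2:**
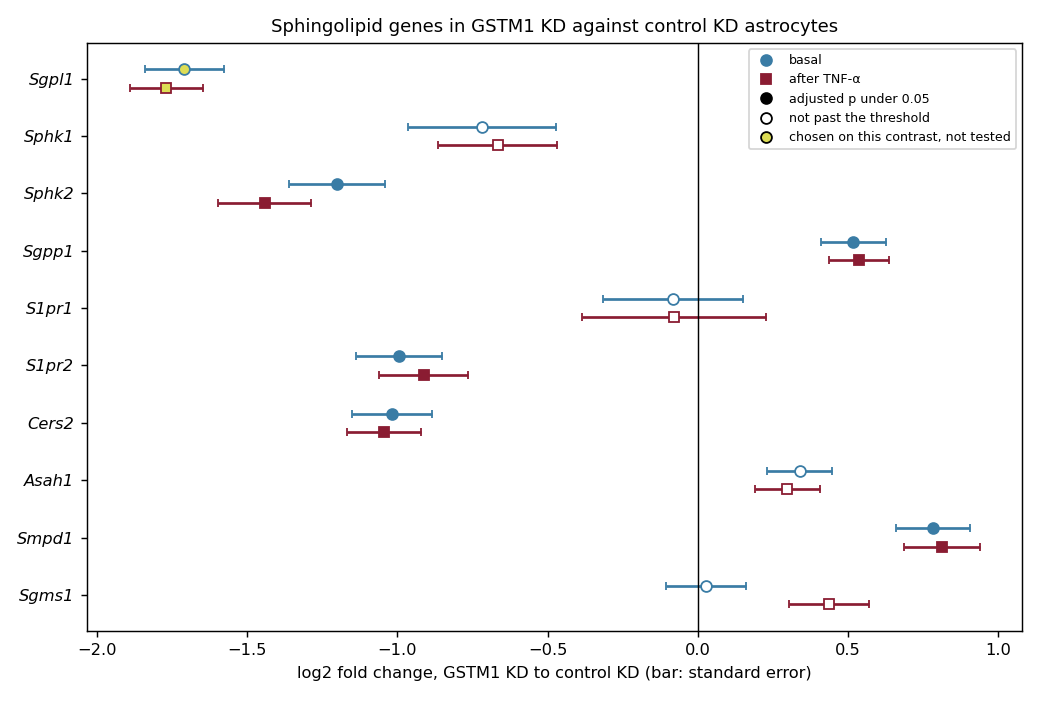
Log2 fold change of GSTM1 KD to control KD (horizontal axis) for the 10 genes, at the basal level (circles) and after TNF-α (squares), with bars for the standard error, filled symbols for an adjusted p under 0.05 and yellow symbols for Sgpl1, which was chosen on this contrast. Sphk2, S1pr2 and Cers2 lie to the left and Sgpp1 and Smpd1 to the right in both states.

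These calls needed both GSTM1 KD replicates. Without GSTM1 KD replicate 1 or replicate 2, 0 of the 9 genes passed in either state, although the fold changes stayed close to those with all libraries and 5, 5, 5 and 6 of the 9 had an unadjusted p under 0.05 in these 4 edgeR fits. Over all genes tested 1 and 3 passed before stimulation and 0 and 94 after it, so calls were lost across the whole table. At the basal level the log2 fold changes without replicate 1 and without replicate 2 were -1.31 and -1.11 for Sphk2, -1.09 and -0.91 for S1pr2, -1.13 and -0.92 for Cers2, 0.56 and 0.47 for Sgpp1 and 0.84 and 0.72 for Smpd1. After TNF-α they were -1.49 and -1.38, -0.83 and -0.99, -1.13 and -0.96, 0.60 and 0.49, and 0.90 and 0.74 for the same genes in that order. Without control KD replicate 2 after TNF-α, all 9 genes passed, 5 higher and 4 lower, and over all genes 32.9% passed. With DESeq2 on the same libraries 5 of the 9 genes passed in each state, beside 10.1% and 11.7% of all genes.

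The response to TNF-α asks which of the 10 genes changed within 6 h of stimulation, a contrast that did not enter the choice of Sgpl1. S1pr2 rose by 1.84-fold in control KD and by 1.98-fold in GSTM1 KD, and Sgms1 fell by 0.62 on the log2 scale in control KD. The other 8 genes passed in neither knockdown. The counts were 2 of 10 in control KD, beside 2.63% of all 15332 genes tested, and 1 of 10 in GSTM1 KD, beside 2.65%. The median log2 fold change of the 10 came to -0.0153 in control KD and -0.00424 in GSTM1 KD, against -0.0212 and -0.00713 over all genes. Libraries before and after stimulation did not overlap for 3 of the 10 genes in control KD and 5 in GSTM1 KD, beside 34.5% and 44.5% of all genes.

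S1pr2 went from 9.58 and 8.20 TPM to 15.1 and 17.1 TPM in control KD and from 4.18 and 4.31 TPM to 7.08 and 8.08 TPM in GSTM1 KD. Stimulated and unstimulated libraries did not overlap in either knockdown. In control KD the log2 fold change was 0.88 (SE 0.139, edgeR adjusted p = 0.0217), and GSTM1 KD gave 0.99 (SE 0.145, edgeR adjusted p = 0.0151). The difference between these responses was 0.11 on the log2 scale (SE 0.199, 95% interval -0.362 to 0.575, edgeR adjusted p = 1). The response in control KD lost its call without control KD basal replicate 1 (log2 fold change 0.871), without basal replicate 2 (0.899), without TNF-α replicate 2 (0.719) and with only the 4 control KD libraries in the fit (0.887), and that in GSTM1 KD without any of its 4 libraries (0.899 to 1.09). The adjusted p of the call ranged up to 0.138 and 0.15 over the alternatives.

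Sgms1 went from 17.5 and 17.1 TPM to 12.1 and 10.8 TPM in control KD, and from 17.1 and 18.0 TPM to 14.7 and 16.3 TPM in GSTM1 KD. Both stimulated control KD libraries lay below both stimulated GSTM1 KD libraries. In control KD the log2 fold change was -0.62 (SE 0.121, edgeR adjusted p = 0.0474), and GSTM1 KD gave -0.19 (SE 0.12, edgeR adjusted p = 0.747). The difference of the responses was 0.43 (SE 0.17, 95% interval 0.0333 to 0.832), which gave an edgeR adjusted p of 1 and an unadjusted p of 0.0373, so the responses were not shown to differ. The call in control KD was lost under 8 of 13 alternatives, among them each control KD library left out (log2 fold changes of -0.537 to -0.7), and its adjusted p ranged from 0.00308 to 0.22.

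No other gene passed the test of the response in either knockdown. Sgpl1 had 0.17 (SE 0.118, edgeR adjusted p = 0.707) in control KD and 0.14 (SE 0.119, edgeR adjusted p = 0.896) in GSTM1 KD, with 95% intervals of -0.102 to 0.452 and -0.141 to 0.419. S1pr1 had 0.39 (SE 0.331) and 0.42 (SE 0.332), values with wide intervals of -0.384 to 1.17 and -0.362 to 1.2. Sphk1 had 0.24 (SE 0.233) and 0.32 (SE 0.241), and Smpd1 had -0.22 (SE 0.127) and -0.16 (SE 0.126). Sphk2, Sgpp1, Cers2 and Asah1 lay between -0.26 and 0.01 in both knockdowns. Libraries before and after stimulation did not overlap for Sgpl1 in control KD and for Sphk2, S1pr1 and Smpd1 in GSTM1 KD. The sign of the response changed with a left-out library for Sgpp1, Cers2 and Asah1 in both knockdowns and for Sphk2, Sphk1 and S1pr1 in control KD. Values that kept their sign moved in size. Sgpl1 ran from 0.112 to 0.251 in control KD and from 0.0366 to 0.256 in GSTM1 KD with a library left out. Sphk1 ran from 0.0992 to 0.522 in GSTM1 KD. Smpd1 ran from -0.342 to -0.0933 in control KD and from -0.238 to -0.0913 in GSTM1 KD. In the test of the difference of the responses 0 of the 10 genes passed and 1, Sgms1, had an unadjusted p under 0.05, which 1.92% of all genes also had. Over all genes edgeR called 0 of 15332 with 295 at an unadjusted p under 0.05, while DESeq2 called 27 of 26474, none of them among the 10.

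**Figure D3:**
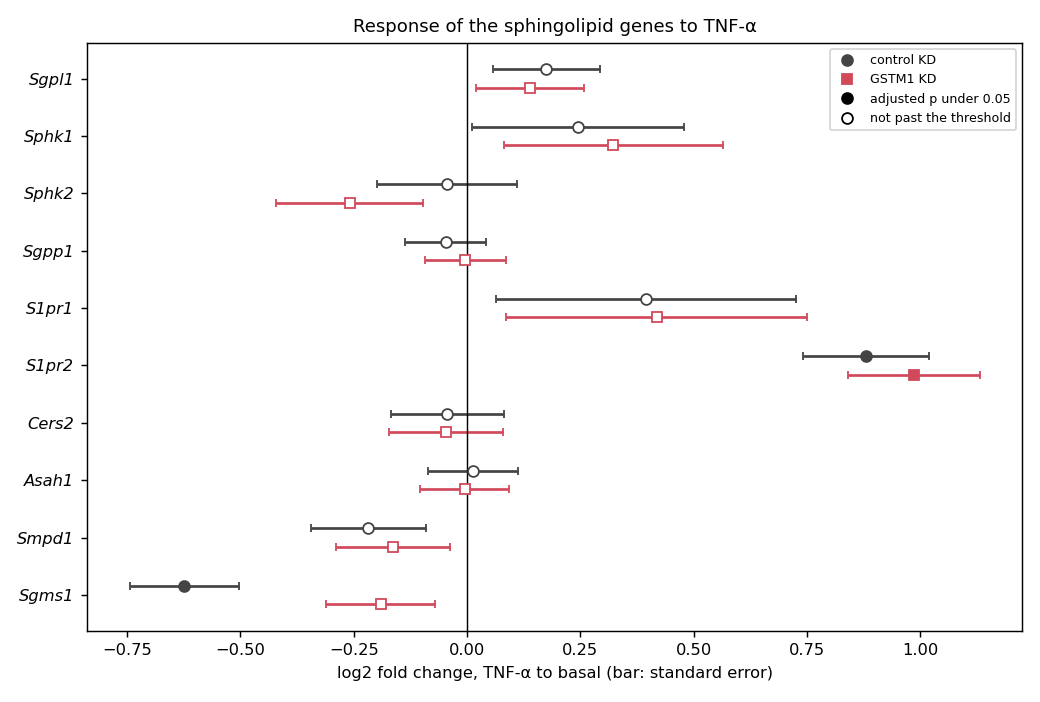
Log2 fold change of TNF-α to basal (horizontal axis) for the 10 genes in control KD (circles) and GSTM1 KD (squares), with bars for the standard error and filled symbols for an adjusted p under 0.05. S1pr2 stands to the right in both knockdowns, and Sgms1 stands to the left in control KD, filled there only.

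To place the 10 genes in their pathway, the other 57 sphingolipid genes of a list were read in the same fits. This list was also chosen with earlier results of these data known, so its shares are a description. At the basal level 46 of the 57 passed the filter on low counts and 8 changed in GSTM1 KD, 7 higher and 1 lower, which is 17.4% beside the 10.2% of all genes. After TNF-α 47 were tested and 9 changed, 6 higher and 3 lower, which is 19.1% beside 16.2%. The median log2 fold change of the list was 0.24 in the basal comparison and 0.18 in the stimulated one, against -0.00203 and -0.0106 over all genes. Of the list, St3gal5, Kdsr, Cers1, Sptlc1 and Cerk rose in both states and B4galt6 fell in both. The share of all genes that passed in both states was not counted, so this agreement is not particular to the list. The counts depended on the fit. With the replicate number as a block 18 and 16 of the list passed, beside 31.6% and 29.5% of all genes. With no filter on low counts 14 of 55 and 17 of 54 passed, beside 16% and 18.8%. Without either GSTM1 KD replicate 0 of the list passed in edgeR in each state (7 to 14 at an unadjusted p under 0.05), and without control KD replicate 2 the counts were 23 and 22, where 34.2% and 32.9% of all genes passed. Without control KD replicate 1 after TNF-α 15 of the list passed, and 18.3% of all genes.

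In ceramide synthesis 3 of 13 tested genes rose at the basal level, beside 4.6% of all genes, and 4 of 13 after TNF-α, beside 7.26%. None of the 13 fell, but they leave out the ceramide synthase Cers2, which fell in both states and is counted among the 10 genes. Kdsr, the reductase of the second step, rose from a mean of 46.1 to 71.6 CPM before stimulation (log2 fold change 0.64, SE 0.103, edgeR adjusted p = 0.0267) and rose by 0.56 after TNF-α (edgeR adjusted p = 0.0266). Sptlc1, a subunit of the serine palmitoyltransferase that starts the pathway, rose by 0.51 (edgeR adjusted p = 0.0428) and by 0.55 (edgeR adjusted p = 0.0304). Cers1, a synthase known from neurons, rose from 19.7 to 37.1 CPM before stimulation (log2 fold change 0.92, edgeR adjusted p = 0.0314) and by 0.79 after TNF-α (edgeR adjusted p = 0.0241). Cers1 shares 42.5% of its exon sequence with Gdf1 on the same strand, so the reads of this pair may not be separable. Cers4, another synthase, had 0.46 at the basal level (edgeR adjusted p = 0.0587, DESeq2 adjusted p = 0.0482) and rose by 0.58 after TNF-α (edgeR adjusted p = 0.025). Beside the fall of Cers2, the other tested synthases Cers3, Cers5 and Cers6 gave no call.

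Among ceramidases and genes that handle ceramide, Cerk, the ceramide kinase, was the single call of 5 tested at the basal level and of 6 after TNF-α. That is 20% and 16.7%, beside 10.2% and 16.2% of all genes. Cerk rose from 18.7 to 39.2 CPM before stimulation (log2 fold change 1.07, SE 0.241, edgeR adjusted p = 0.0491) and from 16 to 30.6 CPM after TNF-α (log2 fold change 0.91, SE 0.197, edgeR adjusted p = 0.0378). In the S1P group Plpp1, a lipid phosphate phosphatase of the plasma membrane, rose by 0.48 at the basal level (edgeR adjusted p = 0.0412) and had 0.44 after TNF-α (edgeR adjusted p = 0.0503), and 25.8% of its exon sequence overlaps Mtrex on the opposite strand. The exporters and other S1P receptors gave no call among 3 tested in each state. The receptor gene S1pr3 had a basal mean of 147 CPM (SD 124, n = 2) in control KD against 66.7 CPM (SD 4.91, n = 2) in GSTM1 KD, so the control replicates were far apart.

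In sphingomyelin turnover Smpd4, a neutral sphingomyelinase, had -0.44 at the basal level (edgeR adjusted p = 0.0755) and fell by 0.50 after TNF-α (edgeR adjusted p = 0.041). It was the single call among 7 tested after TNF-α, which is 14.3% beside 16.2% of all genes. Glycosphingolipid genes gave 3 calls of 14 at the basal level and 3 of 14 after TNF-α, which is 21.4% in each state beside 10.2% and 16.2% of all genes. St3gal5, the synthase of the ganglioside GM3, rose from 34.2 to 57.5 CPM before stimulation (log2 fold change 0.75, edgeR adjusted p = 0.0263) and by 0.92 after TNF-α (edgeR adjusted p = 0.02). B4galt6, a lactosylceramide synthase, fell by 0.51 (edgeR adjusted p = 0.0356) and fell by 0.56 (edgeR adjusted p = 0.0244). Glb1, the lysosomal β-galactosidase, rose by 0.73 at the basal level (edgeR adjusted p = 0.0412) and had 0.54 after TNF-α (edgeR adjusted p = 0.108). B4galnt1, a ganglioside synthase, had -0.99 at the basal level (edgeR adjusted p = 0.066, DESeq2 adjusted p = 0.00755) and fell by 1.10 after TNF-α (edgeR adjusted p = 0.0341) with 20.7% of its exon sequence on the opposite strand of Slc26a10. In response to TNF-α 0 of the 47 tested genes of the list passed in the main edgeR fit in either knockdown (6 and 4 at an unadjusted p under 0.05). With the replicate block edgeR called 2 of 47 in control KD and 0 in GSTM1 KD, beside 6.44% and 5.27% of all genes. With no filter it called 3 of 55 in each knockdown, beside 4.74% and 3.97%. DESeq2 called 2 of 55 in control KD and 1 of 55 in GSTM1 KD, beside 2.8% and 2.38% of all genes.

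**Figure D4:**
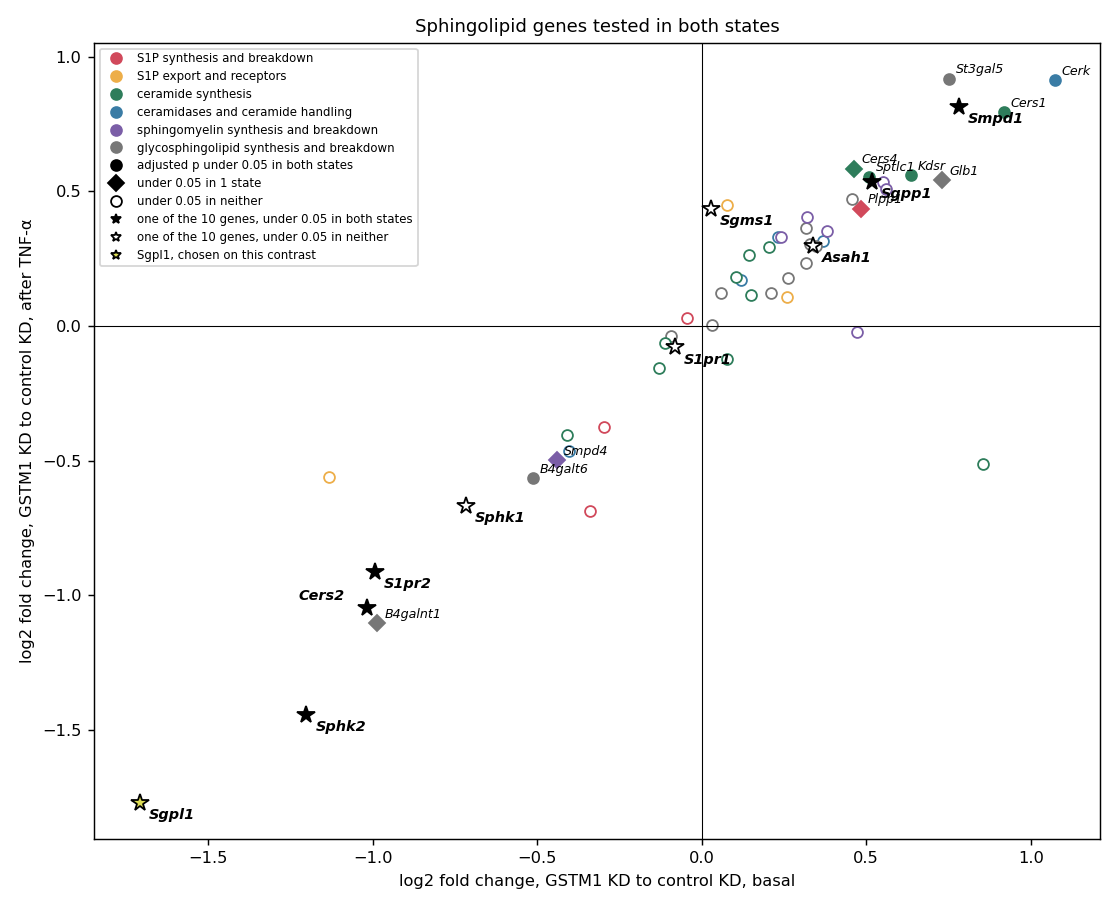
Log2 fold change of GSTM1 KD to control KD at the basal level (horizontal axis) and after TNF-α (vertical axis) for the sphingolipid genes in the fits of both states. Colours mark the group, and stars mark genes of the 10, all of which are named. Open stars mark genes of the 10 with an adjusted p under 0.05 in neither state. The other named genes had an adjusted p under 0.05 in at least a single state, with filled diamonds for those under it in a single state only. Sgpl1 was chosen on this contrast and was not tested in it. St3gal5, Cers1, Cerk, Sptlc1, Kdsr, Smpd1 and Sgpp1, under 0.05 in both states, are filled at the upper right. Sphk2, S1pr2, Cers2 and B4galt6, also under 0.05 in both states, are filled at the lower left.

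Over the 8 libraries, the genes whose log2(CPM + 1) was most like that of Sgpl1 among 15331 others were Mtpn, Ubap2l, Tns3, Myo9b and Cog2, with Pearson correlations of 0.998, 0.998, 0.998, 0.997 and 0.996. Mtpn, which encodes the small protein myotrophin, had a mean of 827 CPM in control KD against 366 CPM in GSTM1 KD before stimulation, and of 896 CPM against 412 CPM after it. Tns3, which encodes a tensin of focal adhesions, had means of 529 and 168 CPM and of 589 and 189 CPM. Ubap2l had 214 and 163 CPM and 218 and 165 CPM, a much smaller step, so likeness here is of pattern and not of size. Of the other 9 genes described, Cers2 came nearest to Sgpl1 with a correlation of 0.974 and Sphk2 with 0.954, and Sgpp1 ran most opposite with -0.995, followed by Smpd1 at -0.957 and Asah1 at -0.922. The 8 points share 4 groups that differ in knockdown, so these correlations describe the libraries and carry no test. With TPM in place of CPM, 1 of the 5 most alike genes stayed in the list.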

How the data were processed

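RNA of 8 astrocyte libraries (2 each of control KD and GSTM1 KD, untreated or with TNF-α) was made into strand-keeping libraries and sequenced as paired ends. Per the submitters' processing notes STAR 2.5.4b and RSEM 1.3.0 were used on GRCm38. The authors deposited, for each gene and library, the expected count (reads shared out among transcripts by RSEM), the effective transcript length (another per-library value) and the TPM, which is scaled for length and to a fixed sum per library. Replicates were not pooled.

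Expected counts were rounded and tested with edgeR 4.0.16 in R 4.3.3 (quasi-likelihood test, TMM scaling, filterByExpr, Benjamini-Hochberg adjustment over all genes tested). The knockdowns were compared within a state, on its 4 libraries, and the TNF-α responses and their difference on all 8 libraries with 1 coefficient per group. Fold changes are per count, with intervals from the model at 95%. TPM was used only for levels. DESeq2 1.42.0, other scalings, filters, length offsets, a replicate block, other library sets and left-out libraries were run as alternatives. Replicates of a group differed by 13.2 to 54.4 times the variance that sampling alone would give, so none was a library deposited in duplicate. With 2 libraries per group no exact permutation test can reach 0.05. The p-values set the difference between groups against a spread modelled from these libraries over the genes tested.

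The 10 genes and all lists were chosen with earlier results of these data known. Named were the 10 genes, Gstm1, every gene of the sphingolipid list past the threshold up to the 12 with the smallest p, the 5 genes most like Sgpl1 and markers by list. A gene of the sphingolipid list is not reported here and was left out of the counts of the list. S1pr3 and the genes overlapping named ones were named after their values were seen. Cers3, Cers5 and Cers6 did not pass and were named as the remaining tested ceramide synthases. Gene positions came from GENCODE M21 (9 of the 10 genes with the same identifier version) and promoter windows from RefSeq. Figures were drawn with matplotlib 3.10.9 in Python 3.11.15. FPKM was not used. The study calls the 2 libraries of a group biological replicates.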

Additional observations from a re-analysis of the deposited data

How the results depend on the processing

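Over 13 alternatives for each comparison of GSTM1 KD with control KD, Sphk2, S1pr2, Cers2, Sgpp1, Smpd1, Sphk1 and Asah1 kept their direction, and Sgpl1 did so as a description. The counts of the 9 tested genes that passed ranged from 0 to 7 at the basal level and from 0 to 9 after TNF-α when a library was left out, against 5 and 5; each lone library was then assumed to vary like the others. For the list of 57 sphingolipid genes these ranges were 0 to 23 and 0 to 22. Without a filter 14 of 55 and 17 of 54 of the list passed, beside 16% and 18.8% of all genes, and with all 8 libraries in the fit 13 of 47 passed at the basal level, beside 18%. With the replicate number as a block 18 and 16 passed, and 2 in the TNF-α response of control KD. The labels do not say what the numbers mark; the deviations of same-numbered libraries correlated at 0.248 to 0.731 over the 6 pairs of groups, and over all genes the block called 4712 and 4302 (31.6% and 29.5%), and 6.44% in the TNF-α response of control KD. With the block 7 of the 9 genes passed in each state: Sphk1 was gained in both (log2 fold change -0.70 and -0.68, edgeR adjusted p = 0.0225 and 0.0371), Asah1 at the basal level (0.34, edgeR adjusted p = 0.025) and Sgms1 after TNF-α (0.44, edgeR adjusted p = 0.0455). The cause of these changes was not tested.

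For the TNF-α response of control KD, 1 of the 10 genes passed with DESeq2 size factors, with at least 10 counts in every library and with effective length offsets (2.62%, 2.7% and 2.48% of all genes), and 0 with only the 4 libraries of that knockdown (0.486%). With a library left out calls were lost in both knockdowns, and fewer genes passed over the whole table as well. In the list, DESeq2 called 2 and 1 (2.8% and 2.38% of all genes), no filter gave 3 and 3 of 55 (4.74% and 3.97% of all genes), and only the 4 libraries of GSTM1 KD gave 1 of 46 (4.68%).

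Signs turned only for values near 0 or with a control library left out. Sgms1 at the basal level was -0.00141 with no filter, -0.0324 with length offsets and -0.075 to 0.117 with a library left out; S1pr1 ranged from -0.397 to 0.306 and from -0.493 to 0.501 there. In the control KD response the ranges over left-out libraries were -0.00601 to 0.574 for Sphk1, -0.211 to 0.119 for Sphk2, -0.0966 to 0.0175 for Sgpp1, -0.171 to 0.808 for S1pr1, -0.142 to 0.0605 for Cers2 and -0.0757 to 0.107 for Asah1, and Asah1 was -0.0197 by library size alone and -0.0116 with no filter. In the GSTM1 KD response they were -0.0539 to 0.0471 for Sgpp1, -0.147 to 0.0672 for Cers2 and -0.0362 to 0.0327 for Asah1, with 8.32e-04 for Sgpp1 and 0.025 for Asah1 under length offsets. The difference of responses ranged from -0.146 to 0.078 for Sgpl1 and from -0.0479 to 0.267 for S1pr2, and was -0.00331 for S1pr2 with length offsets. Of the 5 genes most like Sgpl1, 4 stayed with a pseudocount of 0.1 and 1 with TPM.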
